A study of Mus musculus with 7 samples.

Results

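The 10 genes described here encode the nuclear factors that direct red cell formation, and they were read in erythroblasts sorted from mice whose blood system lacked or carried Sod2, which encodes the mitochondrial manganese superoxide dismutase. They are Gata1, Gata2, Zfpm1, Tal1, Lmo2, Ldb1, Cbfa2t3, Klf1, Nfe2 and Myb, chosen by name, and every probe set that the platform annotation matches to one of them alone was taken. That gave 17 of the 45037 probe sets tested and 10 of 18193 genes. A single probe set represents 6 of the genes, Gata2 and Zfpm1 have 2 each, Myb has 3 and Cbfa2t3 has 4. No probe set was shared between a member and another gene.

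GATA1 is the zinc finger factor without which erythroblasts do not mature, and it replaces its relative GATA2 on many sites as progenitors commit to the red cell lineage. At erythroid enhancers GATA1 is joined by the helix-loop-helix factor TAL1, the bridging protein LMO2 and the dimerizing protein LDB1, which together bring distant enhancers to promoters such as those of the globin genes. FOG1, encoded by Zfpm1, and ETO2, encoded by Cbfa2t3, recruit repressive chromatin enzymes to GATA1 and to TAL1. KLF1 and NF-E2 activate globin, heme and membrane genes late in maturation, while MYB keeps progenitors dividing and declines as red cells mature.

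The RNA came from TER-119+ CD71+ bone marrow cells, a surface phenotype that spans basophilic erythroblasts to late erythroblasts and reticulocytes. The series text describes the cells of both genotypes as matched in size. The paper reports a larger share of basophilic erythroblasts in Sod2-/- marrow, so the mix of stages within the sort may differ between genotypes. The part of that mix in the members' differences was not tested. Sod2-/- samples carry the replicate numbers 31, 35 and 39 (n = 3) and Sod2+/+ samples the numbers 17, 29, 33 and 37 (n = 4), and values are given in that order throughout. Both came from irradiated C57BL/6 Ly5.1 recipients, female by the methods and aged 11 to 15 weeks at transplantation. The donor cells were fetal liver cells of Sod2-/- or Sod2+/+ littermates of mid to late gestation, bred from heterozygous B6-Sod2tm1Cje parents. The mice are chimeras, so radiation-resistant host cells remain possible in the marrow, and only the blood-forming cells differ in genotype. The series text calls the samples biological replicates without naming animals, so the p-values reflect the variation among these 7 samples, part of which may be technical. The study had 1 more Sod2-/- array, which was not used here.

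The deposited values are log2 values made by robust multi-array averaging (RMA), in which the probes of a set are summarised to one number per array. Array medians ran from 4.45 to 4.54. Genotypes were compared by limma over all tested probe sets, with Benjamini-Hochberg adjustment and a threshold of 0.05, and a log2 fold change is Sod2-/- minus Sod2+/+. A gene was read on its brightest probe set unless another is named. Sod2 itself had log2 values of 8.47, 8.09 and 8.61 in Sod2-/- against 8.32, 8.62, 8.20 and 8.59 in Sod2+/+ samples, and because the probe set may lie outside the disrupted part of the gene these values do not check the genotype. All 7 measured of 10 listed erythroblast markers were brighter than the median probe set, and their summed linear signal was 30900 to 33510 in Sod2-/- and 29940 to 31940 in Sod2+/+ samples. Fluidics station 1 handled Sod2-/- replicate 31 and Sod2+/+ replicates 17 and 29, and station 2 the other 4 arrays. Sod2-/- replicates 31 and 39 came from a different chip lot than the other 5 arrays.

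Upstream sequence was available from RefSeq (GRCm38.p6) for 8 members in 13 windows of 250 bases before an annotated transcription start. Lmo2 and Nfe2 had no entry. Each window was searched on both strands for 4 motifs, namely AGATAA and TGATAA, which GATA factors bind, CACCC, which KLF1 and related factors bind, and CAGATG, an E-box of the kind bound by TAL1 with E proteins. The windows of the 3 members whose values differed most between genotypes, Ldb1, Cbfa2t3 and Myb, are printed with that of Klf1, a known GATA1 target whose values overlapped between genotypes. Letters of a match are in capitals, read 5′ to 3′ in the direction of the gene, and a match on the opposite strand appears as its reverse complement. For Ldb1 and Cbfa2t3 the window that holds GATA motifs was chosen among 3 and 2 annotated starts. Ldb1 was read at chr19:46037071-46037320 (minus strand), Cbfa2t3 at chr8:122699110-122699359 (minus strand), Myb at chr10:21160985-21161234 (minus strand) and Klf1 at chr8:84901732-84901981 (plus strand).
Ldb1: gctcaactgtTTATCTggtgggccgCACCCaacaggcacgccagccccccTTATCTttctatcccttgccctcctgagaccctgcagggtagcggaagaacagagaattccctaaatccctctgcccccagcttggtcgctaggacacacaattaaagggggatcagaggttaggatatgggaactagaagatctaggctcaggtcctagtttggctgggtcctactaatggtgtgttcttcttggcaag
Cbfa2t3: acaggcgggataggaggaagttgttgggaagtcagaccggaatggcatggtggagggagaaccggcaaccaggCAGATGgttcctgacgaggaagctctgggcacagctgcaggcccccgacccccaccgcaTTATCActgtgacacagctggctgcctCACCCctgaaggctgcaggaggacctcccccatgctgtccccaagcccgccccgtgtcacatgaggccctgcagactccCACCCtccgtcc
Myb: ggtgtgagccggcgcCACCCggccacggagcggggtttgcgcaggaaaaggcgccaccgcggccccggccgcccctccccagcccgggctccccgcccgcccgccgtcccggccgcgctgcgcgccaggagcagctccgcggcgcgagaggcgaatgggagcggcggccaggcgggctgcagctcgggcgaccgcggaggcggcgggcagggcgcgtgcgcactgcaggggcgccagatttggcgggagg
Klf1: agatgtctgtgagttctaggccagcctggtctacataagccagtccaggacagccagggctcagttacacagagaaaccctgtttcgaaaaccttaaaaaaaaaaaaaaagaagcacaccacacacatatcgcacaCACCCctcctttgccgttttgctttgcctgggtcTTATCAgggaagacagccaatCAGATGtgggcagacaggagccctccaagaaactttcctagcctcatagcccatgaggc

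The Ldb1 window holds AGATAA on the opposite strand at 240 and at 200 bases before the start, with CACCC at 225 bases between them. The Cbfa2t3 window holds CAGATG at 177 bases, TGATAA on the opposite strand at 118 bases and CACCC at 91 and 12 bases before the start. That of Klf1 has CACCC at 114, TGATAA on the opposite strand at 80 and CAGATG at 59 bases. Myb, whose window is 81.2% G and C against a median of 52.4% over all windows, has a single CACCC at 235 bases and none of the other 3 motifs. Either GATA motif was present in 4 of the 13 member windows and in 16.6% of all 32851 windows. CACCC was in 11 of 13 and in 52.0% of all, and CAGATG in 2 of 13 and in 4745 of all 32851. The member windows were 48.8% to 83.2% G and C, most of them above the median of all windows. The counts were not adjusted for this composition. These are matches of letters and do not show binding.

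Among the 17 probe sets, 1 of Cbfa2t3 rose and 2 of Myb fell in Sod2-/- erythroblasts, and the other 14 did not pass the threshold. Over all probe sets 0.566% were called higher and 2.83% lower. By gene on the brightest probe set, 1 of 10 members was called, Myb, which was lower, beside 0.412% of all genes called higher and 4.47% called lower. The median log2 fold change of the members was 0.04, and that of all genes 0.02. Brighter probe sets were lower as a whole. All probe sets with a mean log2 value of 10 to 16 had a median of -0.17. The brightest sets of Gata1, Zfpm1, Tal1, Lmo2, Klf1 and Nfe2 lie in that range. At 6 to 8, where those of the other members lie, the median was -0.18 and 10.6% were called lower. In 3 member probe sets all Sod2-/- values lay above all Sod2+/+ values, as in 7.84% of all probe sets, and in 4 they lay below, as in 10.2% of all. On the brightest probe set 6 of the 10 members had a fold change under 1.2.

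**Figure D1:**
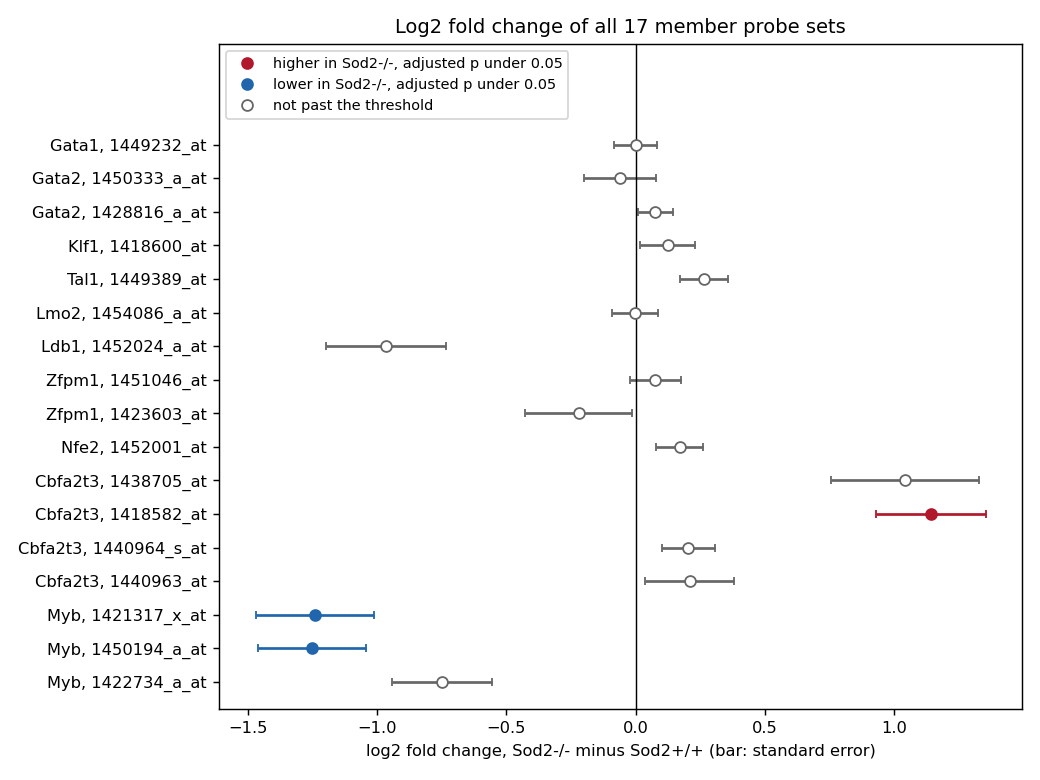
Log2 fold change (Sod2-/- minus Sod2+/+, horizontal axis) of each of the 17 member probe sets, with bars of 1 standard error. The filled points are Cbfa2t3 1418582_at at 1.14 and Myb 1421317_x_at and 1450194_a_at at -1.24 and -1.25, and open points did not pass the threshold.

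Gata1 transcript level did not differ detectably between genotypes. The log2 values were 10.75, 10.56 and 10.73 in Sod2-/- against 10.70, 10.78, 10.53 and 10.69 in Sod2+/+ erythroblasts, means of 10.68 ± 0.11 and 10.68 ± 0.10 (SD). The groups overlapped almost completely, with a log2 fold change of 0.00 (standard error 0.08, 95% interval -0.19 to 0.19, adjusted p = 0.997). An interval of that width leaves room for changes of up to 1.14-fold in either direction.

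Gata2, the factor of stem and progenitor cells that GATA1 displaces, was measured on 2 probe sets. The brighter, 1450333_a_at, had log2 values of 6.48, 6.85 and 7.02 in Sod2-/- against 6.99, 6.66, 6.74 and 6.98 in Sod2+/+ samples (log2 fold change -0.06, standard error 0.14, adjusted p = 0.865). Both its lowest and its highest value were Sod2-/- arrays. On the dimmer, 1428816_a_at, all 7 values lay between 4.46 and 4.66, near the median of all probe sets of 4.48, and the log2 fold change was 0.08 (standard error 0.07, adjusted p = 0.594).

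Zfpm1 encodes FOG1, the partner that GATA1 needs for both activation and repression of many targets. Its brighter probe set, 1451046_at, had log2 values of 11.04, 11.08 and 10.94 in Sod2-/- against 11.07, 11.10, 10.81 and 10.79 in Sod2+/+ samples (log2 fold change 0.08, standard error 0.10, adjusted p = 0.725). The 1423603_at set had 8.24, 8.11 and 7.76 against 8.50, 8.65, 7.80 and 8.07, with a fitted difference of -0.22 (standard error 0.21, adjusted p = 0.620). The sets differed in sign, the genotypes overlapped on both, and neither passed the test.

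Tal1 stood in every Sod2-/- sample slightly above all Sod2+/+ samples. TAL1 is the helix-loop-helix factor of the GATA1 complex and binds DNA together with an E protein. Its log2 values were 11.22, 11.07 and 11.14 in Sod2-/- against 11.04, 10.92, 10.68 and 10.88 in Sod2+/+ erythroblasts. The lowest Sod2-/- and the highest Sod2+/+ value were 0.03 apart, so the groups did not overlap but nearly touched. The log2 fold change was 0.26 (standard error 0.09, 95% interval 0.05 to 0.48), and limma's adjusted p of 0.160 (0.0199 before adjustment) did not pass. After quantile normalization of the values it was 0.39 (adjusted p = 0.0423).

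Lmo2, which encodes the LIM protein that links TAL1 and GATA1 to LDB1, had log2 values of 11.30, 11.29 and 11.05 in Sod2-/- against 11.12, 11.36, 11.21 and 11.19 in Sod2+/+ samples. The highest and the lowest of the 7 values belonged to different genotypes, and the log2 fold change was 0.00 (standard error 0.09, 95% interval -0.21 to 0.20, adjusted p = 0.988).

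Ldb1, the member of the same complex that dimerizes and thereby loops enhancers to promoters, lay lower in every Sod2-/- array. Log2 values were 7.01, 6.72 and 6.00 in Sod2-/- against 7.69, 7.81, 7.47 and 7.20 in Sod2+/+ erythroblasts, means of 6.58 ± 0.52 and 7.54 ± 0.27 (SD). The groups did not overlap, and replicate 39 stood lowest by 0.72 among the Sod2-/- arrays. The log2 fold change was -0.97 (standard error 0.23, 95% interval -1.50 to -0.43), 1.95 times lower, and its adjusted p of 0.0625 missed the threshold. Without Sod2-/- replicate 39 the difference was -0.68 (adjusted p = 0.102), and without Sod2-/- replicate 31 it was -1.18 (adjusted p = 0.0468). It was -0.74 within fluidics station 1, which holds 1 Sod2-/- array, and -0.97 within station 2 (adjusted p = 0.543 and 0.235).

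KLF1 is the erythroid CACCC-binding activator of the adult globin gene. Klf1 had log2 values of 11.74, 11.88 and 11.62 in Sod2-/- against 11.81, 11.70, 11.56 and 11.42 in Sod2+/+ samples (log2 fold change 0.12, standard error 0.11, 95% interval -0.12 to 0.37, adjusted p = 0.582). Nfe2, the erythroid subunit that pairs with a small MAF protein, had 11.42, 11.55 and 11.35 in Sod2-/- against 11.42, 11.33, 11.13 and 11.20 in Sod2+/+ samples. Its log2 fold change was 0.17 (standard error 0.09, 95% interval -0.04 to 0.38, adjusted p = 0.350). For both genes the highest value was that of Sod2-/- replicate 35 and the groups overlapped.

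**Figure D2:**
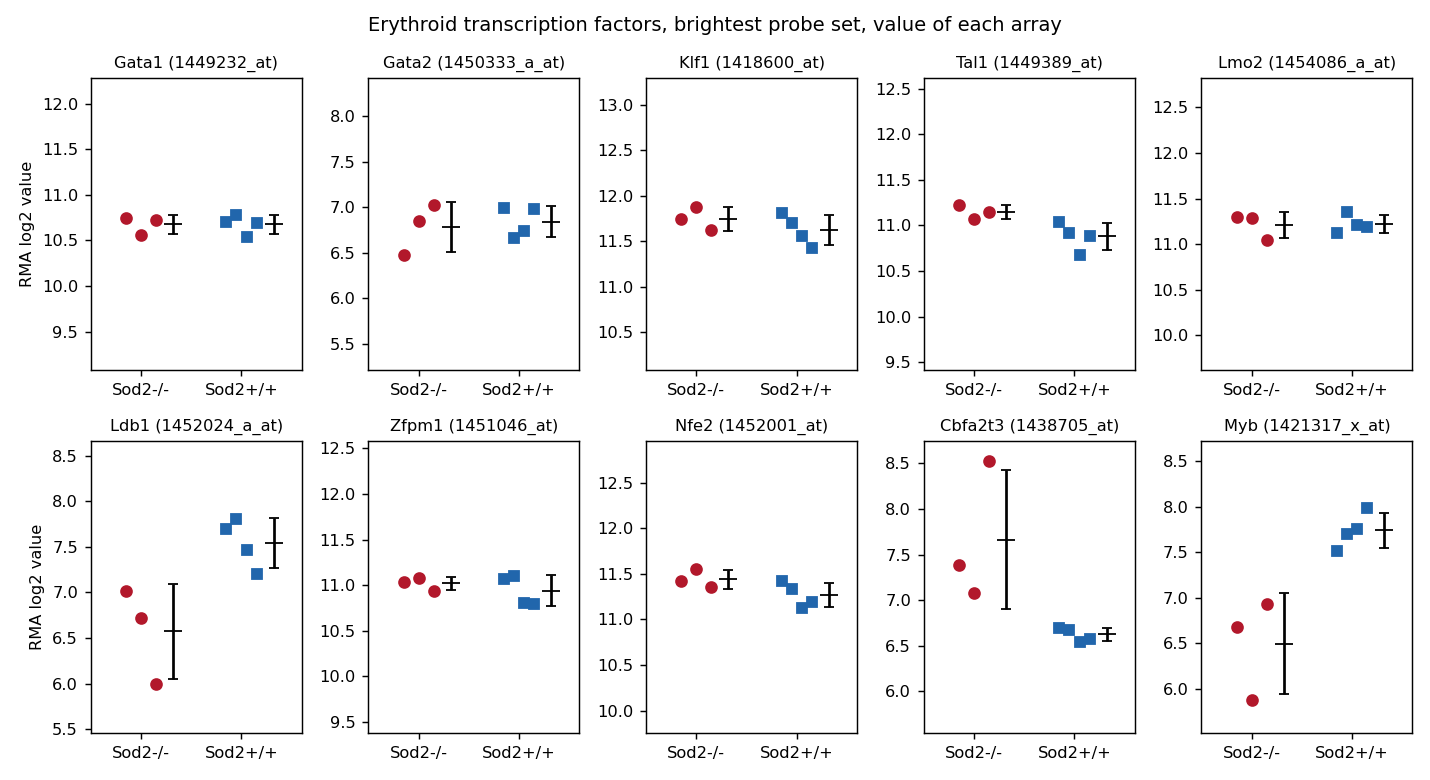
RMA log2 values (vertical axis, the same span in each panel) of the brightest probe set of each member, with Sod2-/- arrays as circles and Sod2+/+ arrays as squares, and the mean and SD of each group beside the points. Ldb1 (6.00 to 7.01 against 7.20 to 7.81) and Myb (5.88 to 6.94 against 7.52 to 7.99) lie below and Cbfa2t3 (7.08 to 8.53 against 6.54 to 6.70) above the Sod2+/+ arrays, Tal1 is just above them and the other 6 members overlap.

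Cbfa2t3 rose in Sod2-/- erythroblasts on 1 of its 4 probe sets. ETO2, its product, is a corepressor that holds TAL1 target genes down until maturation. On the called probe set, 1418582_at, log2 values were 6.69, 6.73 and 7.62 in Sod2-/- against 6.01, 5.99, 5.77 and 5.70 in Sod2+/+ samples. Every Sod2-/- array lay above every Sod2+/+ array, and replicate 39 was the highest by 0.88. The log2 fold change was 1.14 (standard error 0.21, 95% interval 0.66 to 1.63), 2.21 times higher, with an adjusted p of 0.0314.

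The brightest Cbfa2t3 probe set, 1438705_at, had 7.38, 7.08 and 8.53 in Sod2-/- against 6.70, 6.68, 6.54 and 6.58 in Sod2+/+ samples. Here too the groups did not overlap and replicate 39 was highest. The Sod2-/- arrays spread over an SD of 0.76 and the Sod2+/+ arrays over 0.07, and the log2 fold change of 1.04 (standard error 0.29) did not pass the threshold (adjusted p = 0.0879). The other 2 probe sets differed little, with log2 fold changes of 0.20 for 1440964_s_at and 0.21 for 1440963_at (adjusted p = 0.322 and 0.561), and their groups overlapped. Which part of the transcript each probe set covers was not determined here, so the 4 sets may not report the same transcripts.

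Cbfa2t3 stayed higher without Sod2-/- replicate 39, the array with the largest value. On 1418582_at the log2 fold change was then 0.84 (adjusted p = 0.0266), and on 1438705_at it was 0.61 (adjusted p = 0.0449). The call on 1418582_at was lost without Sod2-/- replicate 35 (adjusted p = 0.0737) and without Sod2+/+ replicates 17, 29, 33 or 37 (adjusted p = 0.0535, 0.0739, 0.0568 and 0.0870). Within fluidics stations 1 and 2 the log2 fold changes on that set were 0.69 and 1.44 (adjusted p = 0.543 and 0.175), and with station as a block 1.14 (adjusted p = 0.0550). In the chip lot of the Sod2+/+ arrays, which holds Sod2-/- replicate 35 alone, the difference was 0.86, that of 1 array.

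Myb fell in Sod2-/- erythroblasts, the only member that passed on its brightest probe set. It encodes the factor of dividing progenitors, and all 3 of its probe sets were lower in every Sod2-/- array than in any Sod2+/+ array. The brightest, 1421317_x_at, had log2 values of 6.68, 5.88 and 6.94 in Sod2-/- against 7.52, 7.70, 7.75 and 7.99 in Sod2+/+ samples, means of 6.50 ± 0.55 and 7.74 ± 0.20 (SD). Its log2 fold change was -1.24 (standard error 0.23, 95% interval -1.76 to -0.72), 2.36 times lower, with an adjusted p of 0.0303.

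On 1450194_a_at Myb had 5.49, 4.76 and 5.36 in Sod2-/- against 6.04, 6.46, 6.53 and 6.80 in Sod2+/+ samples, with a genotype difference of -1.25 on the log2 scale (standard error 0.21, adjusted p = 0.0255). The third set, 1422734_a_at, had 4.01, 3.66 and 3.77 in Sod2-/- against 4.195, 4.503, 4.452 and 5.098 in Sod2+/+ samples, and at -0.75 (standard error 0.19, adjusted p = 0.0735) it missed the threshold, with all Sod2-/- values below the median of all probe sets. Sod2-/- replicate 35 was the lowest array, Sod2+/+ replicate 17 the lowest and replicate 37 the highest Sod2+/+ array on each of the 3 sets. By Affymetrix's naming some probes of an x_at set can match other transcripts, and an a_at set holds probes of several transcripts of 1 gene.

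**Figure D3:**
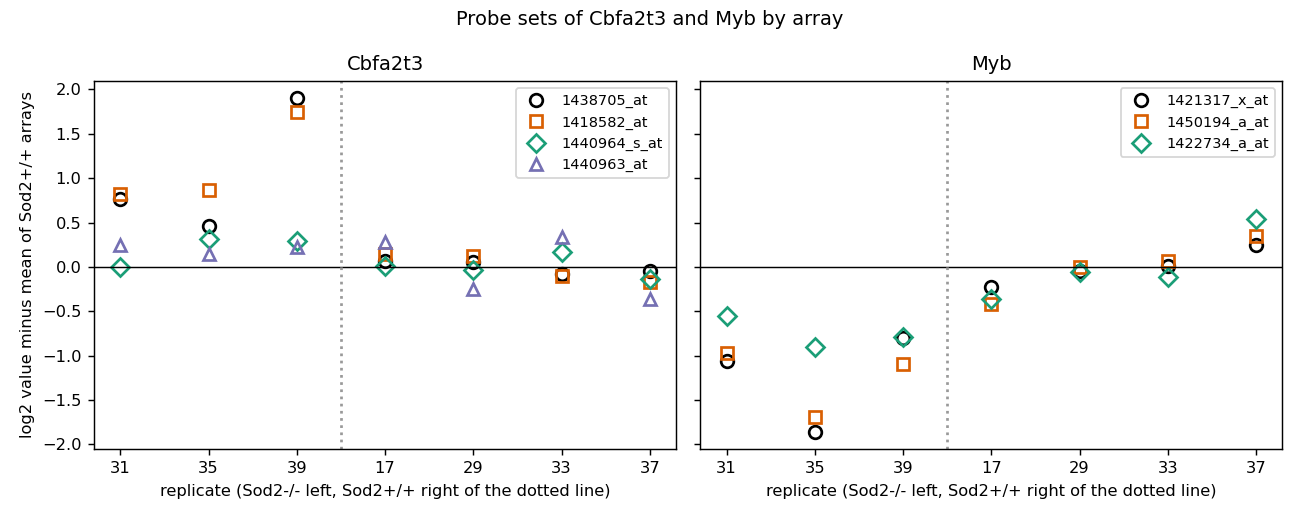
Log2 value minus the mean of the Sod2+/+ arrays (vertical axis) for every probe set of Cbfa2t3 (left) and Myb (right), by array, Sod2-/- arrays left of the dotted line. The Cbfa2t3 sets 1438705_at and 1418582_at are highest in Sod2-/- replicate 39 (8.53 and 7.62 on the log2 scale) while its other sets stay near 0, and the 3 Myb sets move together with their lowest values in Sod2-/- replicate 35.

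The fall of Myb kept its direction in each alternative, and its call did not hold without some single arrays. On the brightest probe set the adjusted p was 0.0508 without Sod2-/- replicate 31, 0.0504 without Sod2-/- replicate 35, and 0.0780, 0.0540 and 0.0835 without Sod2+/+ replicates 29, 33 and 37. On 1450194_a_at it was 0.0737 and 0.0526 without Sod2-/- replicates 35 and 39, and 0.0653 and 0.0656 without Sod2+/+ replicates 29 and 37. The log2 fold change on the brightest set was -0.93 within fluidics station 1 and -1.46 within station 2 (adjusted p = 0.543 and 0.213), and with station as a block -1.25 (adjusted p = 0.0523). In the chip lot of the Sod2+/+ arrays the only Sod2-/- array was replicate 35, the lowest for Myb, so its difference there of -1.86 is that of 1 array and does not check the fall.

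Of 11953 genes other than members with a mean above the median of all probe sets, 130 had a Pearson correlation with Myb above 0.95 over the 7 arrays, among which the difference between genotypes is shared. The 3 most alike were Denr (r = 0.994), Stt3a (r = 0.988) and Imp3 (r = 0.987). Denr, a factor of translation reinitiation, had log2 values of 5.84, 5.27 and 6.05 in Sod2-/- against 6.41, 6.54, 6.44 and 6.74 in Sod2+/+ samples. Stt3a, a catalytic subunit of oligosaccharyltransferase, had 7.74, 7.20 and 8.00 against 8.26, 8.53, 8.35 and 8.55. Imp3, a protein of the small ribosomal subunit processome, had 6.23, 5.86 and 6.60 against 6.84, 7.07, 6.95 and 7.17. All 3 were called lower (log2 fold changes -0.81, -0.77 and -0.78, adjusted p = 0.0441, 0.0498 and 0.0406), with Sod2-/- replicate 35 lowest as in Myb. Leaving out any single array other than Sod2-/- replicate 39 ended all 3 calls (adjusted p = 0.0589 to 0.126).

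Markers of other marrow cells also moved between these sorts, and in a bulk sample fewer cells of a type and less RNA per cell cannot be told apart. Of 9 measured B cell markers 5 were lower and none higher (median log2 fold change -0.77), with a summed linear signal of 340 to 405 in Sod2-/- against 572 to 742 in Sod2+/+ samples. Of 6 mast cell, basophil and eosinophil markers 3 were lower (median -0.77, summed signal 363 to 629 against 1015 to 2211). Of all genes 4.47% were called lower and 0.412% higher. None of 11 neutrophil markers passed, with a median of -0.89 and a summed signal of 16490 to 34430 against 34610 to 43280. At an unadjusted p under 0.05, 10 of these 11 were lower, beside 8801 of all 45037 probe sets in either direction. RMA values are never 0, so no marker could be called absent.

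Sod2-/- replicate 35, the lowest array for Myb, was also the lowest for neutrophil markers, whose mean log2 difference from the Sod2+/+ arrays was -0.14, -1.45 and -0.86 in Sod2-/- replicates 31, 35 and 39. In replicate 31 the Myb set 1421317_x_at differed by -1.06 from the Sod2+/+ mean, and neutrophil markers by -0.14, B cell markers by -0.90 and mast cell, basophil and eosinophil markers by -0.75. In replicates 35 and 39 B cell markers differed by -0.68 and -0.70 and mast cell, basophil and eosinophil markers by -1.04 and -0.92, so both lists were lower in all 3 arrays, as Myb was. None of 6 measured stem and progenitor cell markers passed (median 0.10, summed signal 171 to 182 in Sod2-/- and 158 to 174 in Sod2+/+ samples). Only 2 of these 6 were brighter than the median probe set, so a change in such cells could have gone undetected. None of 5 T and NK cell or 8 megakaryocyte markers passed (medians -0.06 and 0.04). The part of these cells in the difference of Myb was not tested.

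Sod2-/- replicate 39, which had the highest Cbfa2t3 and the lowest Ldb1, also stood apart in macrophage markers. Their mean difference from the Sod2+/+ arrays was -0.03, -0.14 and 1.18 in Sod2-/- replicates 31, 35 and 39, and none of 8 passed (median 0.10, summed signal 337 to 1109 in Sod2-/- and 439 to 514 in Sod2+/+ samples). The value of replicate 39 came mostly from the complement genes C1qa and C1qb, which differed there by 3.45 and 3.60 from their Sod2+/+ means. The other 6 markers averaged 0.40 in replicate 39, with Cd68 at 0.87, Csf1r at 0.69, Adgre1 at 0.60 and Marco at 0.20. In that array Cd163 was at 0.08 and Vcam1 at -0.05. Without that array Cbfa2t3 was still called, as given above, and the part of macrophage RNA in its highest value was not tested. The ratio of 3′ to 5′ probe sets of Gapdh, a measure of RNA integrity, averaged 1.14 in Sod2-/- and 1.32 in Sod2+/+ samples on the log2 scale (difference -0.18, exact two-sided permutation p = 0.0571, where 0.0286 is the smallest possible), and that of Actb 0.72 and 0.75 (p = 0.800). Its part in the members' differences was not tested.

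**Figure D4:**
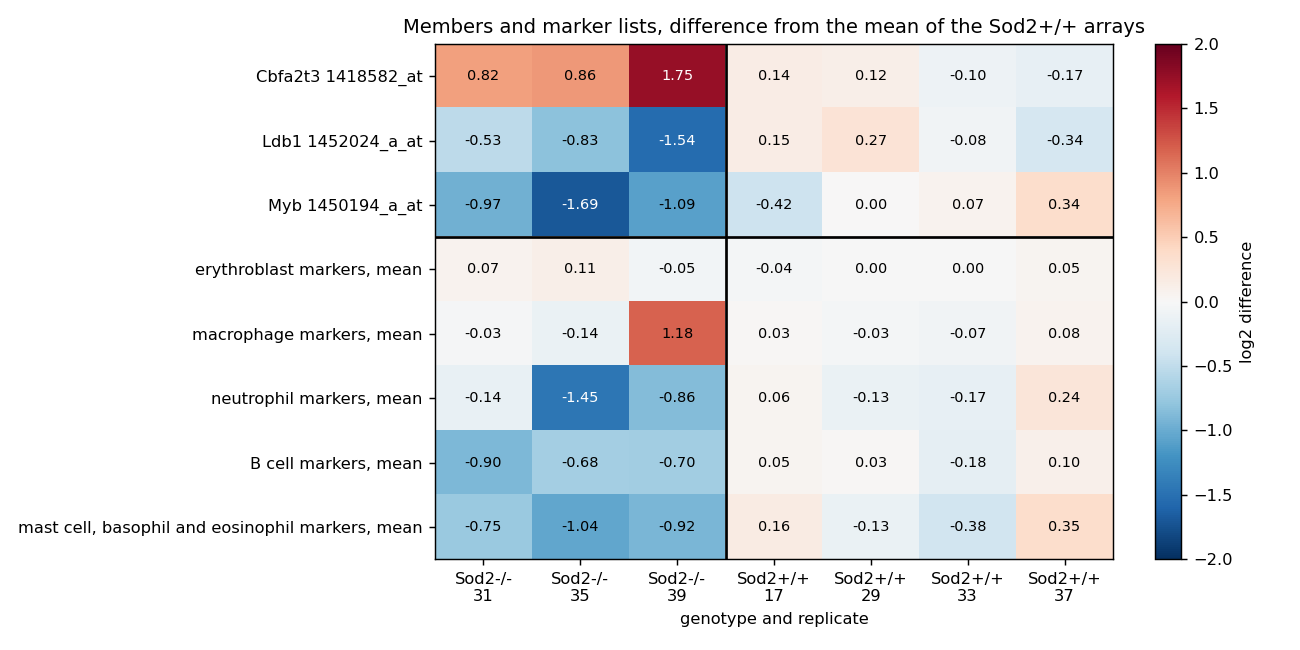
Difference from the mean of the Sod2+/+ arrays (log2, colour and printed value) for Cbfa2t3, Ldb1 and Myb above the line and for the mean of 5 marker lists below it, Sod2-/- arrays on the left. Replicate 39 has the largest macrophage value (1.18), replicate 35 the lowest neutrophil value (-1.45), and B cell markers are lower in all 3 Sod2-/- arrays.

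Several of the enzymes that the members recruit to chromatin fell. Of 18 measured of 19 listed chromatin cofactors, 8 fell and none rose, 16 had a log2 fold change below 0, and the median was -0.39 (all genes 0.02, of which 4.47% were called lower). All 18 were brighter than the median probe set, and lower calls were more frequent among brighter probe sets. Of all probe sets with a mean log2 value of 6 to 8, 10.6% were called lower, and of those at 8 to 10, 13.3%. Hdac2, a histone deacetylase of the NuRD and CoREST complexes, had log2 values of 6.89, 6.56 and 6.66 in Sod2-/- against 7.50, 7.81, 7.65 and 7.95 in Sod2+/+ samples (log2 fold change -1.02, standard error 0.12, adjusted p = 0.0107). Mta2, a NuRD subunit, had 7.12, 7.12 and 6.63 against 7.71, 8.00, 7.58 and 7.94 (-0.85, standard error 0.15, adjusted p = 0.0269). Kdm1a, the histone demethylase LSD1 that works with GFI1B, had 7.15, 6.75 and 7.02 against 7.59, 7.85, 7.39 and 7.57 (-0.63, standard error 0.13, adjusted p = 0.0393).

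None of these 3 overlapped between genotypes on these sets. Of the 2 other Hdac2 sets 1 was called lower (-0.77, adjusted p = 0.0498) and 1 was not (0.00, adjusted p = 0.996), and the second Kdm1a set was not called (-0.16, adjusted p = 0.482). The other 5 that fell were Hdac1, Smarca4, Rbbp7, Mta1 and Rcor1, with log2 fold changes of -0.42 to -0.61. The acetyltransferases Ep300 and Crebbp had 0.04 and -0.20 (adjusted p = 0.870 and 0.546). Hdac2 kept its call whichever single array was left out, while the count of 8 was 1 without Sod2-/- replicate 35 or 39 or Sod2+/+ replicate 29 or 37, 2 without Sod2+/+ replicate 17, and 5 without Sod2-/- replicate 31 or Sod2+/+ replicate 33. Probe sets with a mean log2 value above 6 were lower as a whole, with a median of -0.28 at 8 to 10. At 6 to 8 the median was -0.18 and at 10 to 16 it was -0.17. After quantile normalization these medians were -0.05, 0.02 and -0.06. The median of the cofactors was then -0.18 with 3 called. Of all called probe sets 55.7% were then lower ones, against 83.3% of calls in the values as deposited.

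Among 14 proteins that join the complexes, 1 rose and 1 fell, with a median of -0.19, beside 0.412% of all genes called higher and 4.47% lower. Tcf12, an E protein that pairs with TAL1, had log2 values of 5.94, 5.88 and 6.07 in Sod2-/- against 6.71, 7.31, 6.74 and 7.32 in Sod2+/+ samples (log2 fold change -1.05, standard error 0.17, adjusted p = 0.0230). Mafg, the small MAF partner of NF-E2, had 9.31, 9.15 and 9.38 against 8.82, 8.96, 8.84 and 8.84 (0.42, standard error 0.08, adjusted p = 0.0322). Neither gene overlapped between genotypes on these sets. The other 4 Tcf12 probe sets were not called and overlapped, with log2 fold changes of -0.33 to 0.06, and the second Mafg set did not overlap but was not called (0.34, adjusted p = 0.160). Tcf12 lost its call without Sod2-/- replicate 35 (adjusted p = 0.0830) and without Sod2+/+ replicates 29 or 37 (0.0551 and 0.0558), and Mafg without any 1 of the 7 arrays (0.0558 to 0.0843).

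The measured genes that the factors switch on in maturing red cells did not pass on their brightest probe sets. Of 26 measured of 32 listed activated targets none passed, 5 were higher at an unadjusted p under 0.05, 20 had a log2 fold change above 0 and the median was 0.13, with a range of -0.16 to 0.34. Most of them have a mean log2 value of 10 to 16, where the median of all probe sets was -0.17. Kel, a red cell membrane glycoprotein, had log2 values of 11.68, 11.60 and 11.47 in Sod2-/- against 11.32, 11.36, 11.19 and 11.10 in Sod2+/+ samples (0.34, standard error 0.09, adjusted p = 0.0772). Bcl2l1, which encodes the survival protein BCL-XL, had 10.62, 10.47 and 10.91 against 10.34, 10.43, 10.33 and 10.26 (0.33, standard error 0.10, adjusted p = 0.129). Both genes lay higher in every Sod2-/- array without passing, and the other 3 Bcl2l1 sets overlapped (0.01 to 0.07). Counted over all 67 probe sets of the 26 measured targets, 5 were called higher and 1 lower (7.46% and 1.49%). Over all probe sets these shares were 0.566% and 2.83%. The count of 0 holds for the brightest sets of the measured targets alone. After quantile normalization 2 genes passed, Kel and Bcl2l1 (adjusted p = 0.0390 and 0.0448).

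Of 7 progenitor genes that GATA1 is known to lower, 1 fell (4.47% of all genes), and the median was -0.12. Cdk6, a kinase of cell cycle entry, had log2 values of 6.81, 6.60 and 6.98 in Sod2-/- against 7.22, 7.21, 7.28 and 7.49 in Sod2+/+ samples (log2 fold change -0.50, standard error 0.11, adjusted p = 0.0447). The groups did not overlap on this set, and the other 2 Cdk6 sets were not called (-0.73 and 0.16, adjusted p = 0.121 and 0.306). The call was lost without any single array (adjusted p = 0.0534 to 0.142). Kit and Myc, 2 others of this list, had 0.10 and -0.12 (adjusted p = 0.622 and 0.438). Their log2 means were 4.71 and 4.05 in Sod2-/- and 4.61 and 4.17 in Sod2+/+ samples, near the median of all probe sets of 4.48, so a change in either could have gone undetected.

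Some factors of other blood lineages fell. Of 15 measured of 16 listed, 3 fell and none rose, beside 4.47% and 0.412% of all genes, with a median of -0.19. The share of probe sets called lower was 1.2% at a mean log2 value of 4 to 6, 10.6% at 6 to 8 and 13.3% at 8 to 10. Of the 15, 11 were brighter than the median probe set. Irf8, a factor of monocytes and B cells, had log2 values of 6.37, 6.19 and 6.53 in Sod2-/- against 6.96, 7.06, 7.14 and 7.40 in Sod2+/+ samples (log2 fold change -0.77, standard error 0.12, adjusted p = 0.0223). Ikzf1, the lymphoid factor IKAROS, had 8.56, 8.35 and 8.29 against 8.89, 9.17, 8.89 and 9.10 (-0.61, standard error 0.10, adjusted p = 0.0250). Fli1, a factor of megakaryocytes, had 5.05, 4.97 and 5.21 against 5.69, 5.53, 5.50 and 6.00 (-0.60, standard error 0.13, adjusted p = 0.0411).

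The second probe set of Irf8 was also called (-0.91, adjusted p = 0.0278), and those of Ikzf1 and Fli1 were not (-0.04 and -0.60, adjusted p = 0.922 and 0.272). None of the 3 overlapped between genotypes on its brightest set, and each lost its call without some arrays. Irf8 did so without Sod2-/- replicate 35 or Sod2+/+ replicate 29 (adjusted p = 0.0773 and 0.0529), and Ikzf1 also without Sod2-/- replicate 39 and Sod2+/+ replicate 37 (0.0602 to 0.0905 over these 4). Fli1 kept its call in 1 of the 7 cases, without Sod2+/+ replicate 33. Spi1, which encodes PU.1, the myeloid factor that opposes GATA1, differed by -0.75 on the log2 scale with a standard error of 0.25 (adjusted p = 0.138). The B cell and neutrophil markers given above moved the same way as these factors, and their part was not tested.

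**Figure D5:**
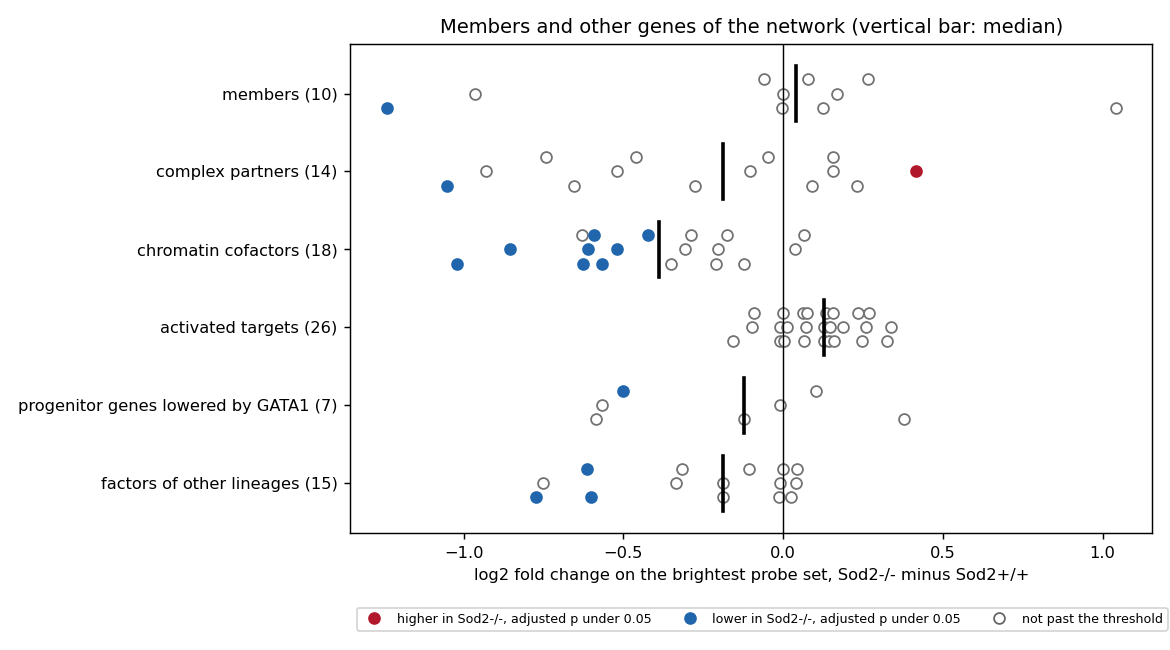
Log2 fold change (Sod2-/- minus Sod2+/+, horizontal axis) on the brightest probe set of the 10 members and of the genes of 5 lists. The lists hold complex partners, chromatin cofactors, activated targets, progenitor genes lowered by GATA1 and factors of other lineages. A vertical bar marks each median, and filled points passed the threshold. The chromatin cofactors hold 8 lower calls and a median of -0.39, the activated targets none and a median of 0.13.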

How the data were processed

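Log2 expression values of 7 Affymetrix whole-genome mouse arrays, 3 Sod2-/- and 4 Sod2+/+, were analysed. The authors scanned the arrays with GCOS 1.3.037 and deposited log2 values computed with the RMA algorithm, per the submitters' processing notes. Groups came from the sample titles, and fluidics station and chip lot from the array settings files. After 64 control probe sets were left out, 45037 remained, of which 34945 matched 1 gene, 932 several and 9160 none in the platform annotation.

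Genotypes were compared with limma 3.58.1 (lmFit and eBayes, R 4.3.3) over all 45037 probe sets, with Benjamini-Hochberg adjustment and a threshold of 0.05, and 95% intervals came from the moderated t statistic. The fit was tested on simulated data. The number of arrays limits the precision. The members, the 5 gene lists and the 8 cell type lists were chosen with earlier results of these data known. Named were all members with every probe set, the 3 genes of each list with the largest log2 fold change past the threshold (or the 2 with the largest where none passed), and the 3 genes most correlated with each member that passed on its brightest probe set. Hdac1, Smarca4, Rbbp7, Mta1, Rcor1, Ep300, Crebbp, Kit, Myc, Spi1 and the macrophage markers were named after their values were seen. Alternatives were the methods' t-test with equal or unequal variances, array weights, eBayes with a robust trend, median centring, quantile normalization, an offset of 32 on the linear scale, bright probe sets alone, station or chip lot as a block or alone, the mean of a gene's probe sets, and leaving out each array. Figures were drawn with matplotlib 3.10.9.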

Additional observations from a re-analysis of the deposited data

Results flagged for a closer look

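Mafg, the small MAF partner of NF-E2, had a value of 8.965 in Sod2+/+ replicate 29, apart from the other 3 Sod2+/+ arrays at 8.822 to 8.839. The gap was 0.882 of the range of the group. This was 1 of 31 features checked for a lone Sod2+/+ array, and chance gives about 1 in 20 such groups. Groups of 3, such as the Sod2-/- arrays, were not checked.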

How the results depend on the processing

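No paired analysis was possible because the genotypes share no replicate numbers and the sources do not say which samples were sorted together. All alternatives were planned. The main fit called 1 member probe set higher and 2 lower, and 1 member gene. It called 8 chromatin cofactors, 2 complex partners, 3 factors of other lineages, 1 progenitor gene and 0 activated targets. Against these counts, a t-test with equal or unequal variances and fluidics station 2 alone gave 0 calls throughout. The authors' own t-test also included the Sod2-/- array not used here, so these t-tests do not repeat its outcome. Over all probe sets, where limma called 255 higher and 1275 lower, the equal-variance test called 1 and 3 (7141 at an unadjusted p under 0.05), the unequal-variance test 0 (5643), and stations 1 and 2 alone 0 (3356 and 5905). An offset of 32 left 1 cofactor and 0 in the other counts (59 higher and 172 lower overall). Station as a block left 0 member probe sets higher, 1 lower and 0 member genes, with 4 cofactors, 0 progenitor genes and 1 activated target (150 and 744 overall). Chip lot as a block left 0 member probe sets higher, 2 cofactors, 1 partner and 1 factor of other lineages (82 and 735). The Sod2+/+ chip lot alone, whose single Sod2-/- array was assumed to vary like the others, gave 0 higher, 1 cofactor, 1 partner, 0 factors of other lineages and 0 progenitor genes (43 and 459). Quantile normalization gave 2 member probe sets higher, 2 member genes, 3 cofactors, 0 progenitor genes and 2 activated targets (656 and 826). Bright probe sets alone gave 2 higher, 3 member genes and 4 partners (360 and 2076 of 22518). Trend and robust estimation gave 2 member genes, 1 partner and 0 progenitor genes, array weights 5 cofactors, and median centring 1 partner (163 higher overall). The mean of a gene's probe sets gave 2 member genes, 1 partner, 1 factor of other lineages, 0 progenitor genes and 3 activated targets. The members' median of 0.039 was 0.171 after quantile normalization and 0.142 in station 2 alone. Leaving out 1 array gave 0 to 2 member probe sets higher, 0 to 2 lower, 0 to 2 member genes, a median of 0.012 to 0.097, and 1 to 5 cofactors, 0 to 1 partners, 0 to 3 factors of other lineages, 0 to 0 progenitor genes and 0 to 0 activated targets (45 to 171 higher and 98 to 1149 lower overall).

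Differences that had not passed changed sign in places. Gata1 was -0.039 after median centring, -0.119 with chip lot as a block or in the Sod2+/+ lot alone, and between -0.047 and 0.061 as single arrays were left out (-0.035, -0.023 and -0.047 without Sod2-/- replicates 31 and 39 and Sod2+/+ replicate 33). Gata2 1428816_a_at was -0.019 in station 1, and 1450333_a_at was 0.141 after quantile normalization, 0.009 by chip lot as a block or alone, 0.074 in station 2, and between -0.178 and 0.093 as single arrays were left out (0.093 without Sod2-/- replicate 31). Klf1 was -0.014 in station 1. Lmo2 was 0.015 with array weights, 0.106 after quantile normalization, 0.008 and 0.073 with station and chip lot as a block, 0.063 in station 1, 0.073 in the Sod2+/+ lot, and between -0.048 and 0.078 as single arrays were left out (0.078 and 0.041 without Sod2-/- replicate 39 and Sod2+/+ replicate 29). Zfpm1 1423603_at was 0.043 after quantile normalization and 0.002 in station 2, and 1451046_at was -0.047 in station 1. No call reversed, and the causes were not tested. Of the single values and list medians under the alternatives, 504 kept their side of the threshold or, for the medians, did not move. A call was lost in 182 and gained in 9, 4 medians moved and 24 values changed sign.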
